A study of Homo sapiens with 24 samples.

Results

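Interferon-stimulated genes are the genes that cells transcribe more strongly after they have met interferon, and most of their products act against viruses. The set described here was defined by gene symbol, not by measured values. It holds the probe sets that the platform annotation pairs with 1 of 45 listed symbols and with no other. Of these 45 genes, 44 were measured, on 50 probe sets, among 18375 genes with a probe set of their own on the array. STAT2 was not analysed here, and the guanylate-binding proteins are not members. Each of PSMB8, PSMB9 and TAP1 had 3 probe sets with identical values, so a gene is counted once.

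The cells were T-47D, a human luminal breast cancer line that carries the estrogen receptor, and 24 Affymetrix Human Gene 1.0 ST arrays were analysed, with 8 groups of 3 biological replicates. Cells called parental were not transfected, NTC cells received a non-target RNAi duplex, and the 2 silenced groups received P-Rex1 RNAi #1 or #2, duplexes against PREX1, which encodes an activator of the small GTPase Rac. Every group was serum-starved and then given HRG (heregulin, which binds ErbB3 and ErbB4) at 20 ng/ml or PBS as vehicle, for 6 h. No group received interferon. Silencing was transient, each duplex is 1 sequence, and the cells are 1 line, which limits what the groups stand for. Whether replicates came from separate cultures is not said beyond the word biological, so p-values measure the spread between these samples. In bulk RNA, fewer cells that express a gene and less RNA per cell cannot be told apart.

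Interferons of type I and type III signal through receptor-bound kinases of the Janus family to a complex that holds STAT2 and IRF9 and binds the interferon-stimulated response element (ISRE) in the promoters of target genes. Interferon of type II, interferon gamma, acts through the gamma-activated site (GAS), and IRF1 is a classical target of it that in turn binds the ISRE. The products sense foreign RNA (IFIH1, the OAS enzymes), bind it (the IFIT proteins) or tag proteins (ISG15). Others block viral entry or assembly (IFITM proteins, BST2, MX1, MX2), or help present peptides to T cells (PSMB9, TAP1, B2M). Many epithelial cells hold some of these transcripts without added interferon.

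The promoters of the members are shown first, because many hold the elements through which interferon acts. RefSeq windows (GRCh38.p14, 250 bases before to 50 after a gene's start) were found for 36 of the 44 members. The ISRE core searched was GAAA, any 2 bases and GAAA again, on either strand, and it lay in 23 of these 36 windows (63.9%), against 996 of 27305 windows of all genes (3.65%). The GAS core TTCNNNGAA, which is its own reverse complement, lay in 11 of the 36 (30.6%) against 2152 of all 27305 (7.88%). Matches to the 2 motifs can overlap, and a match is a description of letters only. Stretches upstream of the start of 5 members are given 5′ to 3′ on the strand of the gene with the motif in capitals. IFIT5, SAMD9 and IFITM1 were called in a comparison and hold an ISRE core, IRF1 was called and holds a GAS core without an ISRE core, and IFIT1 varied most between arrays and was chosen after its values were seen.
IFIT5, chr10:89414503-89414567, + strand: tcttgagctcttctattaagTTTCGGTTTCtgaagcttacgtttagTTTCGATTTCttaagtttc
SAMD9, chr7:93118086-93118135, - strand: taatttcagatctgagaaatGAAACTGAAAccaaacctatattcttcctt
IFITM1, chr11:313980-314029, + strand: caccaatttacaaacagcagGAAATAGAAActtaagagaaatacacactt
IRF1, chr5:132490869-132490917, - strand: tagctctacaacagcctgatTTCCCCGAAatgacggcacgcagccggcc
IFIT1, chr10:89392487-89392549, + strand: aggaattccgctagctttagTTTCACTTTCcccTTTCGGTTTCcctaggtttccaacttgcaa
IFIT5 and IFITM1 each have 1 more ISRE core that runs across the start and is not shown in capitals. Counted from the start, the first ISRE core begins at -45 in IFIT5, -136 in SAMD9, -40 in IFITM1 and -116 in IFIT1, and the GAS core of IRF1 begins at -124. Of the 7 called members with a window, 3 held an ISRE core and 4 a GAS core (IFI35, IFITM1, IRF1 and OAS1). Among the other called members, RSAD2 held neither motif in this window, and MX2 had no window in the table.

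The arrays matched their label as luminal cells. All 10 luminal epithelial markers, among them ESR1, GATA3 and KRT8, lay above the 75% quantile of all probe sets on every array, and the mean of the list ranged from 11.26 to 11.49 log2 units over the 24 arrays. Of 7 measured leukocyte markers, 0 lay above the array median on every array and the list mean ranged from 4.56 to 4.81. The highest mean of a single leukocyte marker over the arrays was 6.51, above the array medians. One of 8 fibroblast markers (COL1A1) and 1 of 6 endothelial markers (CLDN5) lay above the array median on every array. Array medians ran from 6.04 to 6.18. The first principal component (53.6% of the variance) ran from -19.42 to -16.05 in vehicle arrays. Its HRG scores were 19.80 to 27.47 in parental and NTC cells, 14.45 to 19.97 with RNAi #1 and 5.29 to 8.97 with RNAi #2. On the second component (10.9% of the variance) 4 arrays stood apart with the highest scores, 11.25 to 17.46. They were parental vehicle 3, NTC HRG 3, RNAi #1 vehicle 2 and RNAi #2 HRG 3. At the other end, RNAi #2 HRG 1 (-11.70) was not counted among them. PREX1 was lower in all silenced arrays than in all 6 control arrays of the same treatment, by 1.52 (#1) and 1.51 (#2) log2 units with vehicle and by 0.97 and 0.77 with HRG (exact two-sided permutation p = 0.0238 each, the smallest that 3 against 6 arrays allow). Among the controls themselves PREX1 lay between 10.36 and 10.63 with vehicle and between 9.30 and 9.64 with HRG.

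Interferon-stimulated genes were spread widely over the brightness range in T-47D cells, short of its bright end. Mean log2 values ran from 3.65 (TRIM22, with 5.94% of tested probe sets below it) to 9.74 (B2M, with 88.1% below it). The median of the members' mean log2 values was 6.64, against 6.87 over all 21042 probe sets tested. On all 24 arrays, 20 members lay above the array median, 12 below it, and 3 (TRIM22, IFI44L and EPSTI1) below the 25% quantile, where RMA, the normalization the authors applied, compresses differences. IFI44 was below that quantile on 23 arrays. TAP1, the peptide transporter, and B2M, the light chain of MHC class I, lay above the 75% quantile on all 24 arrays. TAP1 ranged from 9.17 to 9.46 and B2M from 9.53 to 9.87 over all arrays, so these presentation genes were near constant across the 8 groups. TRIM22, a restriction factor, ranged from 3.49 to 3.82, and IFI44L reached 4.08 at most. Brightness also depends on a probe set's own probes, so the level of one gene is not set against that of another.

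HRG raised some interferon-stimulated genes and lowered others, and IFIT5 was called higher in all 4 cell groups. A probe set was called where limma's adjusted p (Benjamini-Hochberg over all 21042 probe sets) was under 0.05 and the fold change over 1.5. In parental cells 5 of 44 members (11.4%) were called, with IRF1, IFIT5 and RSAD2 higher and MX2 and IFI35 lower, against 5.27% of all probe sets tested (2.86% higher and 2.41% lower). In NTC cells 4 (9.09%) were called, IRF1 and IFIT5 higher and MX2 and SAMD9 lower, against 6.01% of all (2.64% higher and 3.37% lower). With RNAi #1 the 2 called members (4.55%) were IFIT5 and MX2 (3.67% of all probe sets, 2.52% higher and 1.15% lower), and with RNAi #2 the 2 called (4.55%) were IFIT5 and SAMD9 (1.73% of all, 1.07% higher and 0.656% lower). The members' share lay above that of all probe sets in each cell group, on counts of 2 to 5 members. The median log2 difference over the 44 members was 0.03 in parental cells and -0.07 in NTC cells, against -0.03 and 0.03 over all probe sets, and 25 and 17 of the 44 lay above 0. By the adjusted p alone, 7 members passed in parental cells (30.8% of all probe sets), 14 in NTC cells (31.2%), 9 with RNAi #1 (27.3%) and 7 with RNAi #2 (15.8%). By that rule the members' shares were 15.9%, 31.8%, 20.5% and 15.9%, below those of all probe sets in parental and RNAi #1 cells and near them in the other two.

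**Figure D1:**
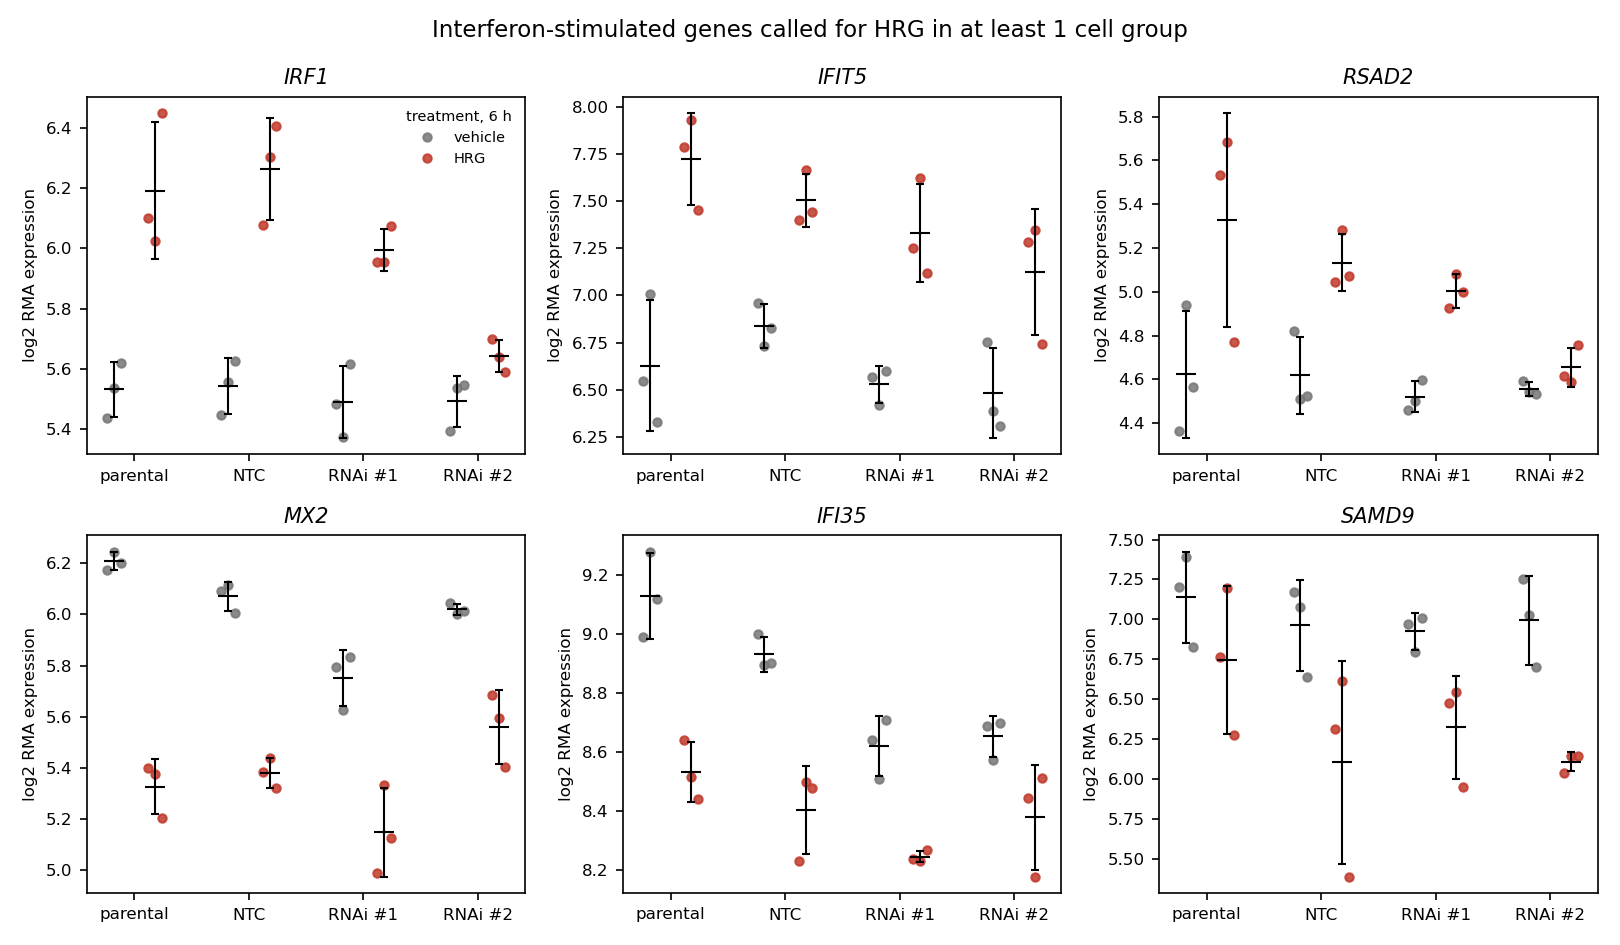
Log2 RMA expression of the 6 members called for HRG in at least 1 cell group, by cell group, with vehicle in grey and HRG in red. Points are arrays, and bars are the mean and SD of 3 arrays. IRF1 and IFIT5 are higher with HRG and MX2 and IFI35 lower, and the IRF1 arrays with HRG and RNAi #2 lie between 5.59 and 5.70, next to the vehicle arrays.

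Of the transcription factors, IRF1 rose with HRG, while IRF7 and IRF9 were not called. IRF1, which activates interferon target genes and is itself induced by interferon gamma and by NF-kappa B, stood at 5.44, 5.54 and 5.62 log2 units in parental vehicle arrays and at 6.10, 6.03 and 6.45 with HRG. The NTC arrays stood at 5.45, 5.56 and 5.63 with vehicle and at 6.08, 6.30 and 6.41 with HRG. No vehicle array reached the lowest HRG array in either control group. The log2 difference was 0.66 (SE 0.10, 1.58-fold, adjusted p = 1.18e-05 by limma) in parental and 0.72 (SE 0.10, 1.65-fold, adjusted p = 3.63e-06 by limma) in NTC cells. Without parental HRG 3 the parental difference was 0.53, under the fold threshold, with an adjusted p of 0.000117 by limma. With RNAi #1, IRF1 went from 5.48, 5.38 and 5.62 to 5.95, 5.95 and 6.07 (log2 difference 0.50, SE 0.10, adjusted p = 0.00038 by limma, below 1.5-fold). With RNAi #2 it stood at 5.40, 5.54 and 5.55 without and at 5.70, 5.64 and 5.59 with HRG, a difference of 0.15 (95% interval -0.05 to 0.35) that did not pass the test. IRF7, the master activator of interferon alpha genes, stayed between 6.55 and 7.03 over all 24 arrays, and its differences with HRG ran from -0.12 to 0.13. IRF9, the DNA-binding part of the STAT complex, had differences with HRG from 0.02 to 0.12. SP100, a nuclear body protein, was lower by less than 1.5-fold in NTC cells (-0.36, adjusted p = 0.00464 by limma), with RNAi #1 (-0.41) and with RNAi #2 (-0.39), and stood at -0.24 in parental cells, where it did not pass (adjusted p = 0.0555).

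Among the sensors and RNA-directed effectors, IFIT5 was the 1 of 12 members called for HRG. IFIT5 binds RNA with a 5′ phosphate, and it lies on chromosome 10 with IFIT1, IFIT2 and IFIT3. It stood at 6.54, 7.01 and 6.33 in parental vehicle arrays and at 7.79, 7.93 and 7.45 with HRG. In NTC cells it went from 6.96, 6.73 and 6.83 to 7.40, 7.67 and 7.44. The HRG arrays lay above all vehicle arrays in both control groups. The log2 difference was 1.10 (SE 0.17, 2.14-fold, adjusted p = 3.2e-05 by limma) in parental cells, 0.67 in NTC cells (adjusted p = 0.00443), 0.80 with RNAi #1 (adjusted p = 0.00122) and 0.64 with RNAi #2 (adjusted p = 0.0123). RNAi #1 arrays went from 6.57, 6.42 and 6.60 to 7.25, 7.62 and 7.12. With RNAi #2 the vehicle arrays stood at 6.75, 6.39 and 6.31 and the HRG arrays at 7.28, 7.35 and 6.74, and the lowest HRG array lay just below the highest vehicle array. There the call was lost when RNAi #2 vehicle 2 or 3, or RNAi #2 HRG 1 or 2, was left out (log2 differences 0.53 to 0.60, adjusted p 0.0529 to 0.0736). The difference in NTC cells was 0.43 below that in parental cells (95% interval -0.94 to 0.08), and this contrast did not pass the test (adjusted p = 0.607). IFIT5 stands next to its relatives IFIT1, IFIT2 and IFIT3, whose log2 differences in parental cells were 0.53, 0.33 and 0.28 with adjusted p of 0.41, 0.12 and 0.305 by limma. In NTC cells IFIT1 had a difference of -0.15 and IFIT2 of 0.19. Of the 2′-5′ oligoadenylate synthetases, which start the degradation of RNA, OAS1 and OAS3 had differences between -0.08 and 0.05 in the 4 cell groups, and OAS2 between -0.60 and -0.31 with no adjusted p under 0.11. IFIH1, the RNA sensor MDA5, passed the adjusted p alone in NTC cells (-0.45, adjusted p = 0.0448), where the arrays went from 6.72, 6.46 and 6.61 to 6.19, 6.47 and 5.78. HRG arrays of IFIH1 overlapped those with vehicle.

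ISG15 and the proteins of its pathway were not called for HRG in any group. ISG15, a ubiquitin-like protein and a classical reporter of interferon exposure, ranged from 5.72 to 6.26 over all 24 arrays, with group means between 5.85 and 6.08. Its differences with HRG ran from -0.18 to 0.14. The ligases HERC5 and HERC6 and the protease USP18, which takes ISG15 off again, passed the adjusted p alone in NTC cells, at -0.25 (adjusted p = 0.0172), -0.40 (adjusted p = 0.00453) and -0.32 (adjusted p = 0.0255). In parental cells HERC5 stood at 0.15, HERC6 at -0.22 and USP18 at -0.23, and none passed there.

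The antiviral GTPases and restriction factors held members that moved in opposite directions. MX2, a GTPase that blocks the nuclear import of retroviruses, stood at 6.18, 6.25 and 6.20 in parental vehicle arrays and at 5.40, 5.38 and 5.20 with HRG. NTC arrays stood at 6.09, 6.11 and 6.01 with vehicle and at 5.38, 5.44 and 5.32 with HRG. All HRG arrays lay below all vehicle arrays in each of the 4 cell groups. The log2 value fell by 0.88 (SE 0.08, adjusted p = 1.96e-08 by limma) in parental cells and by 0.69 (SE 0.08, adjusted p = 6.16e-07 by limma) in NTC cells. MX2 went from 5.79, 5.63 and 5.83 to 4.99, 5.33 and 5.13 with RNAi #1, a difference of -0.60 that was below 1.5-fold without RNAi #1 vehicle 1, vehicle 3 or HRG 1 (-0.58, -0.56 and -0.52). With RNAi #2 it went from 6.04, 6.00 and 6.01 to 5.68, 5.59 and 5.40 (-0.46, adjusted p = 0.000316 by limma, below 1.5-fold). Its relative MX1, which has its gene beside MX2, had differences from 0.14 to 0.30, and no adjusted p under 0.565.

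RSAD2, known as viperin, an enzyme that makes a chain-terminating nucleotide, was called higher in parental cells. Its values were 4.36, 4.94 and 4.57 with vehicle and 5.53, 5.68 and 4.77 with HRG, so that the lowest HRG array lay below the highest vehicle array. The log2 difference was 0.71 (SE 0.16, adjusted p = 0.00145 by limma), and it was 0.58 without parental vehicle 1 and 0.53 without parental HRG 2, both under the fold threshold. Its mean over all arrays lay below the 25% quantile of the probe sets tested, so the alternative without dim probe sets left RSAD2 out and had 4 members called in parental cells. In NTC cells RSAD2 went from 4.82, 4.51 and 4.52 to 5.05, 5.28 and 5.07 (0.52, adjusted p = 0.016). With RNAi #1 the difference was 0.48 (adjusted p = 0.0281), with the arrays at 4.46, 4.50 and 4.60 and then between 4.93 and 5.08. With RNAi #2 the values were 4.59, 4.54 and 4.53 and then 4.62, 4.59 and 4.76 (0.10, adjusted p = 0.796). The neighbouring gene CMPK2, a nucleotide kinase, had differences from 0.05 to 0.18. SAMD9, a factor that restricts poxviruses, was called lower in NTC cells, with arrays at 7.17, 7.08 and 6.64 with vehicle and at 6.31, 6.61 and 5.39 with HRG. The difference of -0.86 (SE 0.25, adjusted p = 0.0102 by limma) leaned on NTC HRG 3, 1 of the 4 arrays apart, and was -0.50 (adjusted p = 0.116) without it. It also missed the adjusted p without NTC vehicle 1 (-0.75, adjusted p = 0.053). With RNAi #2, SAMD9 went from 7.26, 7.03 and 6.70 to 6.04, 6.14 and 6.15, without overlap (-0.89, adjusted p = 0.0166). There the adjusted p was 0.0857 without RNAi #2 vehicle 1 and 0.0514 without RNAi #2 vehicle 2. In parental cells SAMD9 stood at 7.20, 7.39 and 6.82 and then at 6.76, 7.20 and 6.27 (-0.39, adjusted p = 0.274), and with RNAi #1 at 6.97, 6.79 and 7.01 and then at 6.48, 6.54 and 5.95 (-0.60, adjusted p = 0.0784). SAMD9L, its neighbour and close relative, had differences from -0.01 to 0.06. TRIM14, an adaptor of the MAVS pathway, was higher by less than 1.5-fold in all 4 groups (0.30 to 0.38, adjusted p 0.00725 to 0.0212). Of IFITM1, IFITM2 and IFITM3, BST2, TRIM22 and PLSCR1, no member passed the adjusted p for HRG in any group.

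Of the interferon-induced proteins with other or little known roles, IFI35 fell. IFI35 stood at 8.99, 9.28 and 9.12 in parental vehicle arrays and at 8.64, 8.52 and 8.44 with HRG, while NTC cells had a lowest vehicle value of 8.89 and HRG values of 8.23, 8.50 and 8.48. No HRG array reached a vehicle array in either group. The log2 value fell by 0.60 (SE 0.09, adjusted p = 1.51e-05 by limma) in parental cells. It was below 1.5-fold without parental vehicle 2 (-0.52), without parental HRG 3 (-0.55), without both parental arrays numbered 2 (-0.51) and with each array centred on its median (-0.56). The difference was -0.53 in NTC cells (adjusted p = 6.03e-05), -0.37 with RNAi #1 and -0.27 with RNAi #2. IFI6, a mitochondrial inhibitor of cell death, ranged from 8.18 to 9.65 over the 24 arrays, with differences between -0.14 and 0.21. IFI27, another strong reporter of interferon exposure, ranged from 5.32 to 6.04, with differences between -0.14 and 0.13. IFI44, IFI44L, XAF1 and EPSTI1 did not pass either. In the antigen presentation group, PSMB9, an inducible subunit of the immunoproteasome, was lower by less than 1.5-fold in all 4 cell groups (-0.39 in parental, -0.25 in NTC, -0.29 with RNAi #1 and -0.31 with RNAi #2, adjusted p 7.03e-05 to 0.00592). In parental cells its arrays went from 7.36, 7.48 and 7.59 to 7.18, 7.05 and 7.02. TAP1, which shares a promoter region with PSMB9, had differences of 0.05 to 0.09. B2M passed the adjusted p with RNAi #1 (0.21, adjusted p = 0.00252) and stood at 0.12, 0.00 and 0.02 in the other groups.

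**Figure D2:**
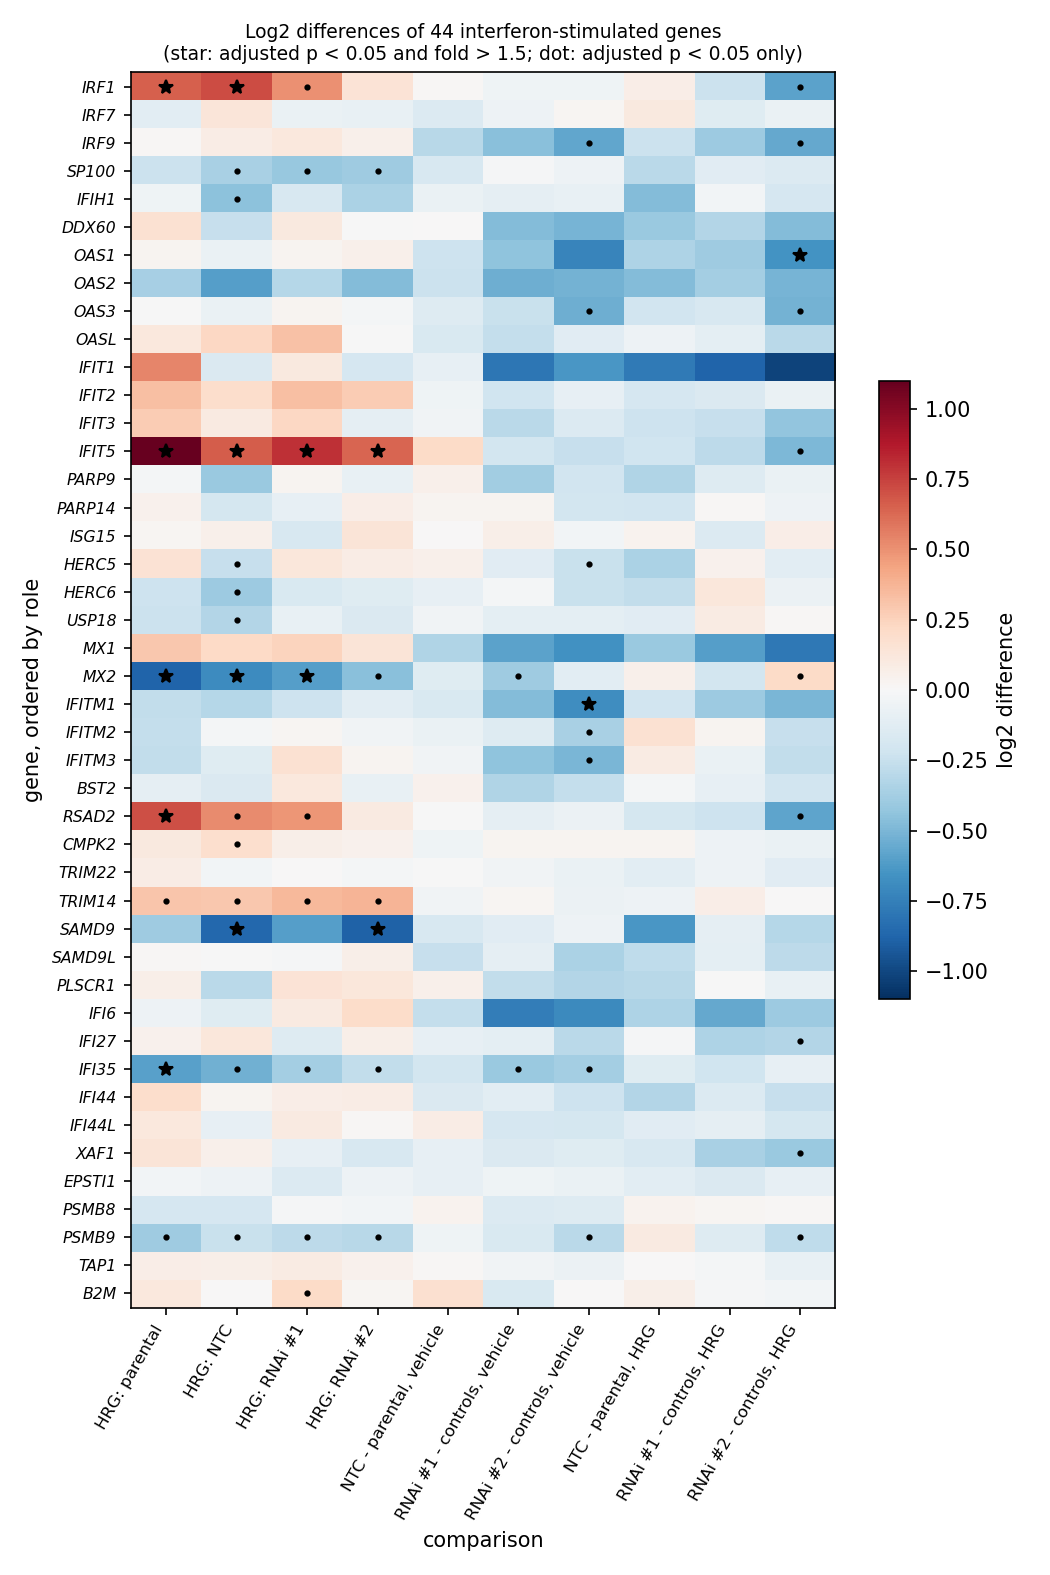
Log2 differences of the 44 members (rows, ordered by role) in 10 comparisons (columns), on a colour scale from blue (lower) to red (higher). The 4 HRG columns hold both colours with IFIT5 starred in each, and the silencing columns on the right are mostly blue with 1 star in each RNAi #2 column (IFITM1 with vehicle, OAS1 with HRG).

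The transfection itself was examined by setting NTC against parental cells. No member was called with vehicle or with HRG (0% of all probe sets in both), and by the adjusted p alone there were 0 as well (0.0095% of all probe sets with vehicle, 0% with HRG). At an unadjusted p under 0.05 by limma there were 2 members with vehicle and 7 with HRG. The share of all probe sets at that rule is not given here or below. Counts by it therefore have no background and are not read as a result about the members. Members lay lower in NTC cells more often than higher, 31 of 44 with vehicle (median -0.06) and 33 of 44 with HRG (median -0.19), against medians of -0.01 and 0.03 over all probe sets.

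Silencing of P-Rex1 was compared with the mean of parental and NTC cells, and most members stood lower in the silenced cells by amounts that seldom passed the test. These comparisons share their control arrays, so they are not independent of each other. Members also varied together between arrays of a group, with 180 of 946 pairs at an r over 0.7. Counts of members by direction, here and for NTC against parental cells, are therefore not counts of separate observations. Parental vehicle 2, a control array, held the highest value of its group for 38 of 44 members. With vehicle, 40 of 44 members lay below the controls with RNAi #1 (median -0.17, all probe sets 0.01) and 41 of 44 with RNAi #2 (median -0.21, all probe sets 0.01). With HRG, 37 lay below with RNAi #1 (median -0.14, all probe sets 0.00) and 39 with RNAi #2 (median -0.23, all probe sets 0.01). The control mean includes untransfected parental cells, and members stood lower in NTC than in parental cells (median -0.06 with vehicle, -0.19 with HRG). Counts by direction against NTC cells alone are not given, so these counts do not separate silencing from transfection. With RNAi #1, 0 members were called with vehicle (0.0285% of all probe sets) or with HRG (0.185%). At an unadjusted p under 0.05 by limma there were 18 and 13 members with RNAi #1, and 20 and 21 with RNAi #2. These counts again have no background share and are not read as a result about the members. With RNAi #2, 1 member was called with vehicle (0.181% of all probe sets), and 1 with HRG (1.01%). By the adjusted p alone, RNAi #1 had 2 lower members with vehicle (0.665% of all probe sets, 0.623% lower) and 0 with HRG (5.07%). RNAi #2 had 8 with vehicle (3.35%, 2.59% lower), all lower, and 10 with HRG (15%, 6.71% lower), 9 of them lower. The adjusted p of IRF9, OAS3 and PSMB9 passed under RNAi #2 with both treatments. With HRG, IRF1 (-0.58, adjusted p = 3.22e-05 by limma) and RSAD2 (-0.58, adjusted p = 0.00558) lay just under the fold threshold, and MX2 was the member higher than the controls (0.21, adjusted p = 0.0495).

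IFITM1, a membrane protein that blocks viral entry, was the member called with RNAi #2 and vehicle. Its control arrays stood at 8.12, 9.14 and 8.48 in parental and 8.73, 8.18 and 8.33 in NTC cells, and the RNAi #2 arrays at 7.75, 7.79 and 7.91. All 3 RNAi #2 arrays lay below all 6 control arrays. The log2 value fell by 0.68 (SE 0.18, adjusted p = 0.0349 by limma). The adjusted p ran from 0.0098 to 0.169 over the alternatives and passed in 23 of 33. It missed when parental vehicle 2 (-0.54, adjusted p = 0.0682), NTC vehicle 1 (-0.60), NTC vehicle 3 (-0.70) or any of the 3 RNAi #2 vehicle arrays was left out, and with NTC cells alone as the control (-0.60, adjusted p = 0.169). With RNAi #1 and vehicle, IFITM1 stood at 8.02, 7.87 and 8.19 (-0.47, adjusted p = 0.275). Its close relatives IFITM2 and IFITM3, whose probe sets may share sequence with it, passed the adjusted p alone with RNAi #2 and vehicle (-0.35 and -0.50, adjusted p = 0.0262 and 0.0457).

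OAS1 was the member called with RNAi #2 and HRG. The control arrays stood at 7.26, 7.55 and 6.38 in parental and 6.71, 6.98 and 6.49 in NTC cells, and the RNAi #2 arrays at 6.26, 5.95 and 6.51. The RNAi #2 arrays overlapped the lowest control arrays. The log2 value fell by 0.65 (SE 0.22, adjusted p = 0.0464 by limma), and the adjusted p passed in 13 of 33 alternatives (range 0.00511 to 0.264). Without parental HRG 2 the difference was -0.53 (adjusted p = 0.116), without RNAi #2 HRG 2 it was -0.51 (adjusted p = 0.226), and against NTC cells alone -0.49 (adjusted p = 0.264). It also missed the adjusted p without any 1 of 13 further arrays, among them 5 of RNAi #1, which enter only through the shared spread. With vehicle the OAS1 difference was larger (-0.73) but did not pass (adjusted p = 0.0753). In that comparison the RNAi #2 arrays, at 6.07, 6.23 and 6.26, lay below every control array (6.49 to 7.62).

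IRF9 and OAS3 were lower with RNAi #2 by less than 1.5-fold. IRF9 stood at 7.15, 7.89 and 7.39 in parental and 7.31, 7.01 and 7.22 in NTC vehicle arrays, and at 6.81, 6.66 and 6.81 with RNAi #2 (-0.57, SE 0.14, adjusted p = 0.0258 by limma). With HRG the difference was -0.56 (adjusted p = 0.00765). With RNAi #1 it was -0.46 and -0.40, and neither passed (adjusted p = 0.15 and 0.112). OAS3 had differences of -0.54 (adjusted p = 0.0181) and -0.52 (adjusted p = 0.00553) with RNAi #2. Without the 4 arrays that stood apart, IRF9 was called with both treatments (-0.59 and -0.64), and OAS3 (-0.60) and RSAD2 (-0.64) were called with HRG. IFIT1, MX1 and IFI6 had large differences that did not pass. MX1 stood at -0.59 with RNAi #1 and -0.67 with RNAi #2 with vehicle (adjusted p = 0.414 and 0.265), IFIT1 at -0.79 and -0.64 (adjusted p = 0.408 and 0.496), and IFI6 at -0.76 and -0.70 (adjusted p = 0.117 and 0.0885). With HRG, IFIT1 stood at -0.88 with RNAi #1 and -1.02 with RNAi #2 (adjusted p = 0.192 and 0.0727), and MX1 at -0.61 and -0.79 (adjusted p = 0.237 and 0.0628). With the replicate number as a block, IFIT1 and MX1 were called along with OAS1 for RNAi #2 with HRG, 3 members in place of 1. MX2 and IFI35 were the members that passed the adjusted p alone with RNAi #1 and vehicle (-0.39 and -0.41, adjusted p = 0.00828 and 0.0115). IFI35 also passed with RNAi #2 and vehicle (-0.38, adjusted p = 0.00602), at 8.69, 8.57 and 8.70 against control arrays from 8.89 to 9.28. ISG15 had differences between -0.15 and 0.07 in the 4 comparisons, and TAP1 between -0.09 and -0.02.

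**Figure D3:**
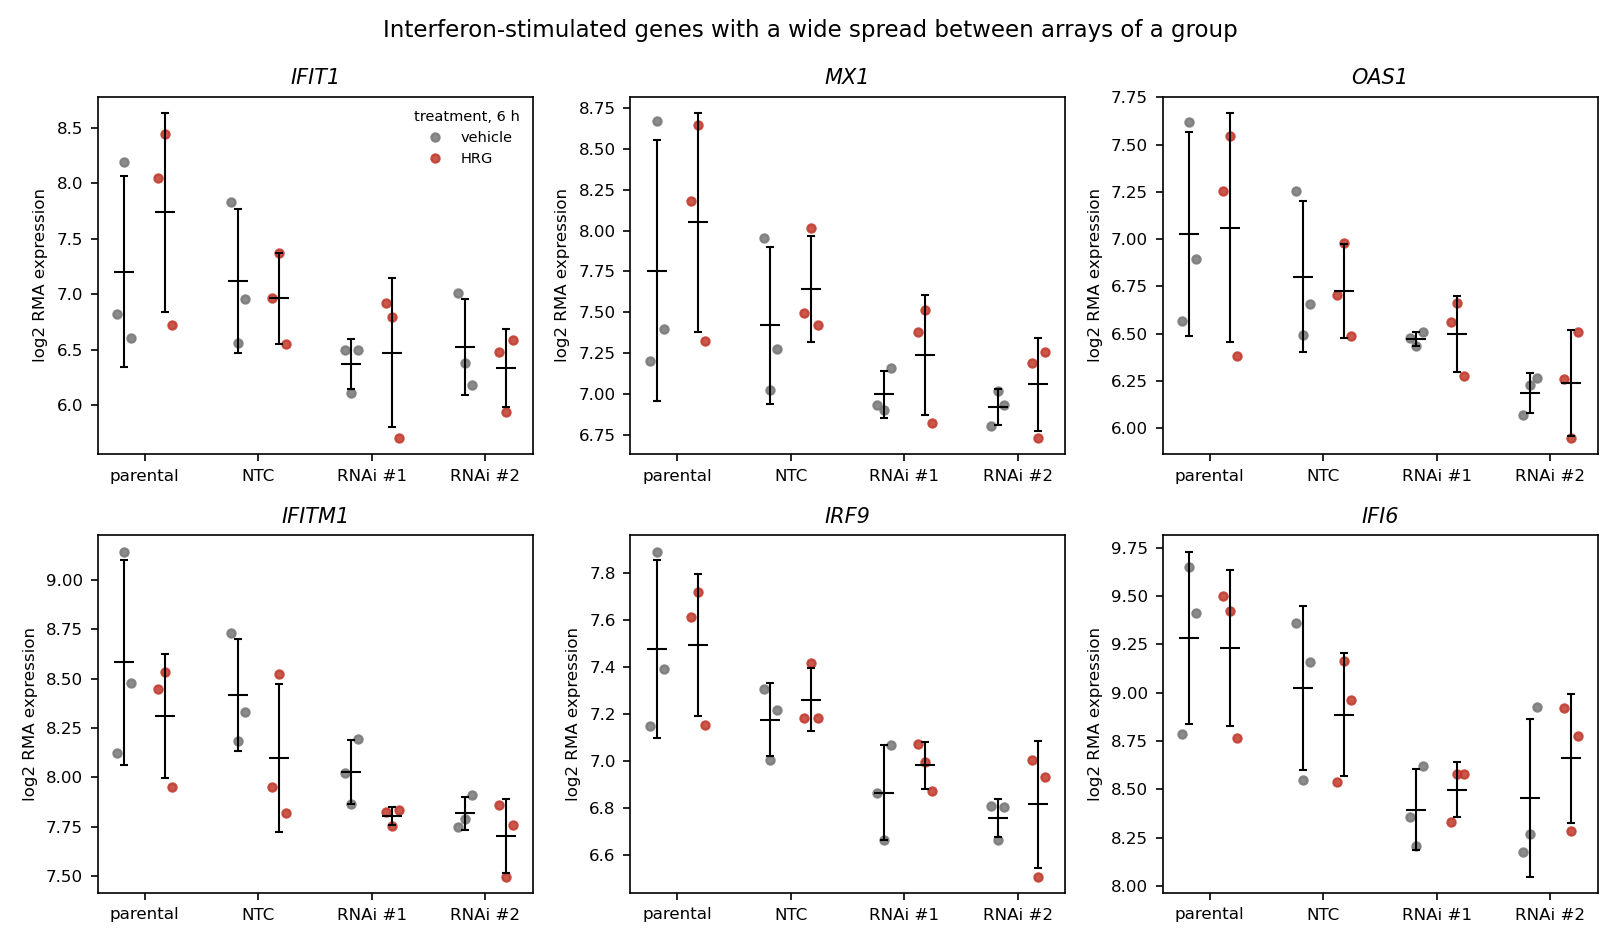
Log2 RMA expression of 6 members with a wide spread between arrays of a group, by cell group, with vehicle in grey and HRG in red. Points are arrays, and bars are the mean and SD of 3 arrays. MX1 spans 7.20 to 8.67 in parental vehicle cells and 6.81 to 7.02 in the vehicle arrays of RNAi #2.

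Whether the response to HRG differed with P-Rex1 silencing was tested by the interaction term, the HRG difference in silenced cells minus its mean in parental and NTC cells. No member was called with RNAi #1 (0.171% of all probe sets) or with RNAi #2 (0.779%), with 2 and 4 members at an unadjusted p under 0.05 by limma. By the adjusted p alone 0 members passed with RNAi #1 (1.16%) and 1 with RNAi #2 (3.94%). That member was IRF1, whose HRG difference was 0.54 log2 units smaller with RNAi #2 than in the controls (interaction -0.54, 95% interval -0.78 to -0.29, adjusted p = 0.00915 by limma). The adjusted p of this term was under 0.05 in 33 of 33 alternatives (0.00093 to 0.0348). With RNAi #1 the IRF1 term was -0.19 (95% interval -0.43 to 0.06, adjusted p = 0.388). Set directly against each other with HRG, RNAi #2 lay below RNAi #1 for IRF1 (-0.35, adjusted p = 0.0353) and above it for MX2 (0.41, adjusted p = 0.00365), without a called member (0.413% of all probe sets, 4.86% by the adjusted p alone), and 7 members had an unadjusted p under 0.05. With vehicle 0 members were called between the duplexes (0.147% of all), 0 passed the adjusted p alone (2.36% of all), and 4 had an unadjusted p under 0.05. PREX1 with HRG stood at 8.45 to 8.60 with RNAi #1 and at 8.57 to 8.83 with RNAi #2. For RSAD2 the term was -0.51 with RNAi #2 (adjusted p = 0.172) and for MX2 0.33 (95% interval 0.12 to 0.53, adjusted p = 0.0686).

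The members varied between arrays of the same group more than most probe sets did. The median within-group SD was 0.186 over the members and 0.0975 over all probe sets tested, 30 of 44 members lay in the widest 25% of all probe sets and 23 in the widest 5%. IFIT1 had the largest within-group SD of the members, 0.61 log2 units, followed by MX1 (0.46), OAS2 (0.39), DDX60 (0.36) and OAS1 (0.36). B2M (0.05), CMPK2 (0.06), TAP1 (0.07) and PSMB9 (0.08) had the smallest. IFIT1, which binds viral RNA without a host cap, stood at 6.82, 8.20 and 6.60 in parental vehicle arrays and at 8.05, 8.44 and 6.72 with HRG. It stood at 7.83, 6.56 and 6.96 in NTC vehicle arrays and at 6.97, 7.37 and 6.55 with HRG. MX1, a GTPase that traps viral nucleocapsids, stood at 7.20, 8.67 and 7.40 in parental vehicle arrays, at 8.18, 8.65 and 7.33 with HRG and at 7.96, 7.03 and 7.28 in NTC vehicle arrays. For both genes single arrays of 1 group differed by more than any of the group means did.

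These deviations ran together across the members. The deviation of each array from its group mean was correlated between all 946 pairs of members over the 24 arrays, which share the subtracted means and are described without a test. The median Pearson r was 0.39, with 180 pairs over 0.7 and 0 pairs below -0.7. MX1 was closest to OAS1 (r = 0.97), OAS2 (0.94), OAS3 (0.93), IFIT3 (0.92) and IFIT1 (0.91), and 18 members in all had an r over 0.7 with it. MX2 (0.34), B2M (0.13), IRF7 (0.11), HERC5 (-0.06) and IRF1 (-0.36) lay at the other end. Of the other members called for HRG, RSAD2 (0.87) lay in the close group around MX1, and SAMD9 (0.61), IFIT5 (0.59) and IFI35 (0.59) lay between.

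**Figure D4:**
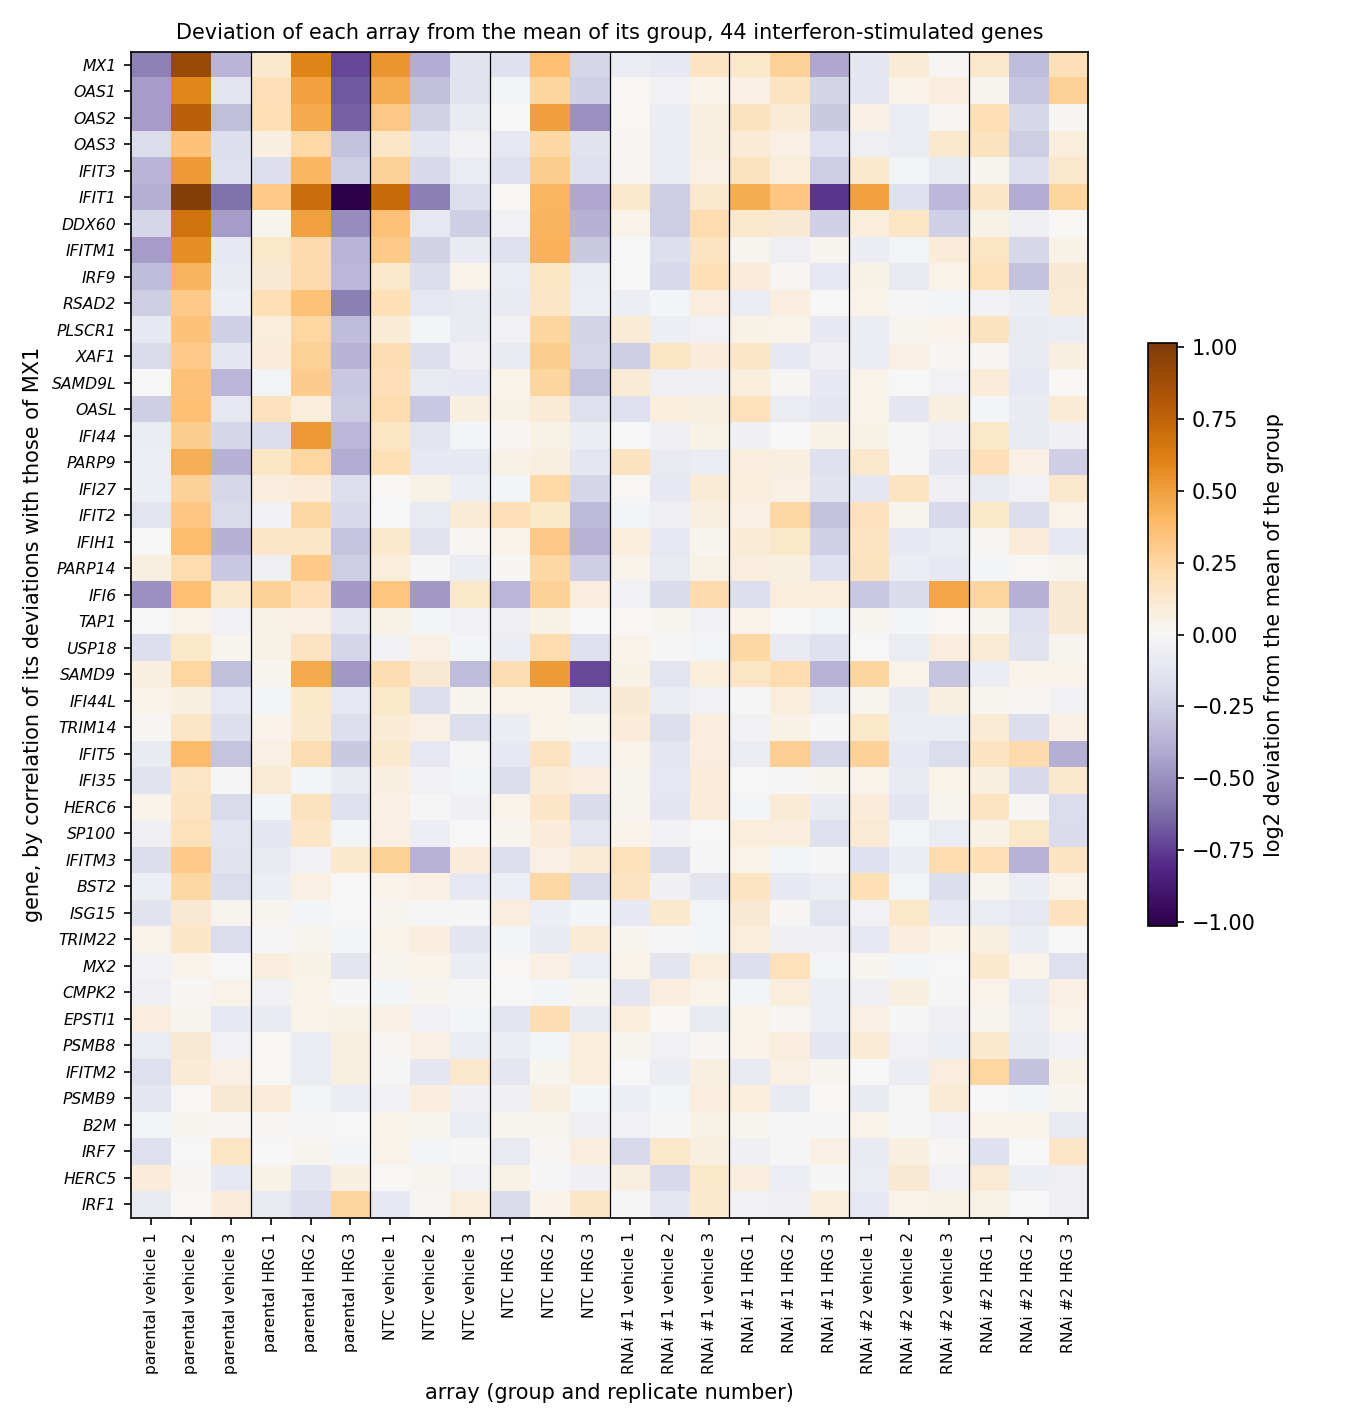
Deviation of each array (columns, 3 per group) from the mean of its group, in log2 units, for 44 members (rows) ordered by the correlation of their deviations with those of MX1. Parental vehicle 2, parental HRG 2, NTC vehicle 1 and NTC HRG 2 are high over most of the upper rows, and the lower rows, down to IRF1, are pale.

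Single arrays held the highest or lowest value of their group for most members. Parental vehicle 2 held the highest value of its group for 38 of 44 members (20.7% of all probe sets), and the median over the members was 7.03 there against 6.62 and 6.46 in the other parental vehicle arrays. Parental HRG 2 held the highest value for 30 members (30.4% of all), NTC vehicle 1 for 32 (32.3%) and NTC HRG 2 for 32 (34.7%). Parental HRG 3 held the lowest value for 33 members (31.4% of all), RNAi #1 vehicle 2 for 31 (36.6%) and RNAi #2 HRG 2 for 31 (32.7%). The arrays highest for the members were not among the 4 that stood apart on the second component, whereas RNAi #1 vehicle 2 and NTC HRG 3, which was lowest for 28 members (37.6% of all), were. Leukocyte, fibroblast and endothelial markers stayed in the narrow ranges given above for leukocytes, at 5.04 to 5.25 for fibroblast and 4.66 to 4.98 for endothelial lists over all 24 arrays. Without both parental arrays numbered 2, a choice made after these values were seen, the median r over 22 arrays was 0.31, 99 pairs lay over 0.7, and MX1 and OAS1 had an r of 0.95. The same omission left 4 members called for HRG in parental cells, without IFI35, and it left 0 called with RNAi #2 and vehicle. With RNAi #2 and HRG, IRF1 (-0.63) was then called and OAS1 (-0.53, adjusted p = 0.0609) was not. What set these arrays apart was not tested.

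The pathway around the members was read from 6 lists. Of 11 interferon genes measured, 0 were called in any comparison, and IFNL3 in NTC cells with HRG (0.25, adjusted p = 0.0456) alone passed the adjusted p. Of 10 receptor subunits and transducers 0 were called. The receptor chains of interferon gamma, IFNGR1 and IFNGR2, were higher by less than 1.5-fold with HRG in all 4 cell groups, IFNGR1 by 0.33 to 0.51 and IFNGR2 by 0.40 to 0.46 log2 units (largest adjusted p 0.00549 and 5.47e-05 by limma). Of 20 sensors and adaptors 0 were called for HRG. DDX58, the RNA sensor RIG-I, was called lower with RNAi #2 and HRG, where the arrays stood at 7.90, 7.72 and 7.77 against 8.25 to 8.82 in the controls (-0.72, adjusted p = 6.44e-06 by limma). With RNAi #1 and HRG, DDX58 stood at 8.19, 7.98 and 8.01 (-0.46, adjusted p = 0.00439, below 1.5-fold). Of 10 other genes of MHC class I presentation 0 were called.

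Among 12 regulators, most of them inhibitors of interferon signalling, HRG called IRF2 in 3 cell groups. IRF2 competes with IRF1 for the same DNA element and mostly represses. Its parental arrays went from 9.15, 8.95 and 9.13 to 8.37, 8.30 and 8.17, a change in the opposite direction to IRF1. The log2 value fell by 0.79 in parental cells (adjusted p = 7.95e-07 by limma), by 0.97 in NTC cells and by 0.70 with RNAi #1, and the difference with RNAi #2 was -0.47 (adjusted p = 0.00115). No HRG array of IRF2 reached a vehicle array in any group. The interaction of IRF2 with RNAi #2 was 0.41 (adjusted p = 0.0443, below 1.5-fold). ISG20, an exonuclease rather than an inhibitor, rose by 0.66 in NTC cells (adjusted p = 0.000101), and TRIM21, an antibody receptor in the cytosol, by 0.62 with RNAi #1 (adjusted p = 6.52e-05). SOCS1, a feedback inhibitor of Janus kinases, had a difference of 0.32 in NTC cells (adjusted p = 0.0253), and SOCS3 had group means from 5.53 to 5.86. Of 10 genes led by interferon gamma, ICAM1, an adhesion molecule that NF-kappa B also induces, was called. It stood at 5.86, 6.03 and 6.12 in parental vehicle arrays and at 7.08, 7.23 and 6.91 with HRG (1.07, adjusted p = 6.87e-08 by limma), and its difference in NTC cells was 0.95. With HRG it was lower with RNAi #1 (-0.59, adjusted p = 0.000622) and RNAi #2 (-1.02, adjusted p = 7.46e-08), where the arrays stood at 6.12, 6.35 and 6.58 and at 5.89, 5.87 and 5.99. The interaction was -0.55 with RNAi #1 (adjusted p = 0.0418, below 1.5-fold) and -0.79 with RNAi #2 (adjusted p = 0.00076).

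**Figure D5:**
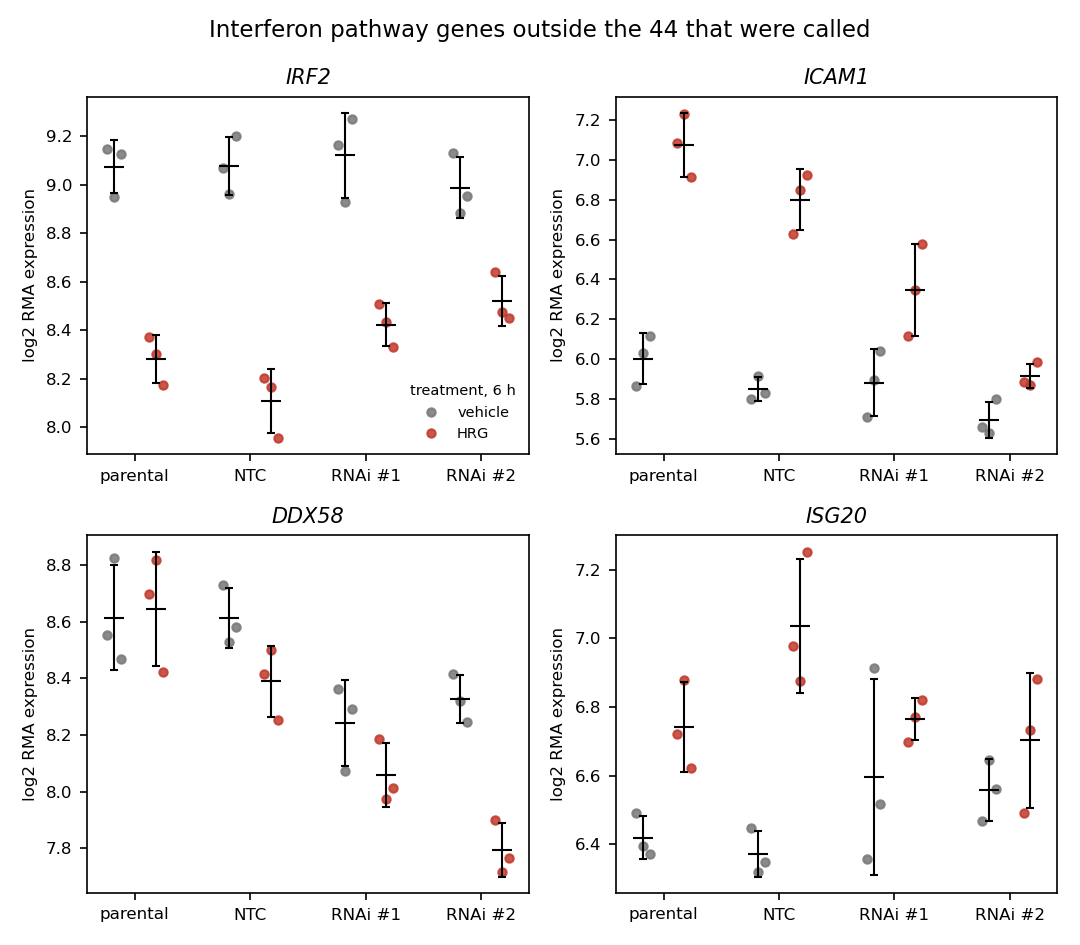
Log2 RMA expression of 4 genes of the interferon pathway outside the 44 members, by cell group, with vehicle in grey and HRG in red. Points are arrays, and bars are the mean and SD of 3 arrays. IRF2 is lower with HRG in every group, ICAM1 is higher in parental and NTC cells and lies between 5.87 and 5.99 with RNAi #2, and DDX58 is lowest with RNAi #2 and HRG.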

How the data were processed

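RNA of 24 samples was hybridised to Affymetrix Human Gene 1.0 ST arrays. The authors normalized the arrays with RMA through simpleaffy (version not given in the sources used here) and deposited log2 values of 28536 probe sets, so read depth does not apply. RMA compresses differences of dim probe sets. Groups were taken from the sample labels. Probe sets were named through the platform annotation (19293 with 1 symbol, 1749 with several, 7494 with none). Members and gene lists were chosen with earlier results of these data known.

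From the deposited log2 values, limma 3.58.1 (R 4.3.3) fitted 1 mean per group over all 24 arrays, with Benjamini-Hochberg adjustment over the 21042 probe sets with a symbol. Calls required both a change of more than 1.5-fold and an adjusted p below 0.05. The study's own rank-based test was not rerun. PREX1 was compared by an exact permutation test (scipy 1.17.1). The fit was tested on simulated data. Values were printed for members called in any comparison, for a set of classical members whatever their values and for pathway genes called. Related genes such as IFITM1, IFITM2 and IFITM3 may share probe signal, which was not tested.

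Alternatives were no fold threshold, no dim probe sets (under the 25% quantile), all probe sets, a robust fit with trend, median centring, only the groups compared, NTC alone as control, each array left out, the 4 arrays apart left out, and the replicate number as a block. Leaving out both parental arrays numbered 2 and the contrast of NTC with parental responses were added after the data were seen. The 4 arrays apart were themselves picked by their scores on the second principal component of these data. The labels share replicate numbers. Deviations of same-numbered HRG and vehicle arrays correlated at over 0.1 for every number in parental cells (r = 0.12, 0.14 and 0.25) and with RNAi #2 (0.39, 0.30 and 0.22), and the block changed no call of a member there. Motifs were searched in promoter windows from RefSeq, build GRCh38.p14. No promoter window was used for 8 members.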

Additional observations from a re-analysis of the deposited data

Results flagged for a closer look

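The response of IRF1 to HRG differed between cells with RNAi #2 and the controls by the test of the difference itself. The interaction was -0.54 log2 units (95% interval -0.78 to -0.29, adjusted p = 0.00915 by limma over all probe sets), from log2 differences with HRG of 0.66 in parental, 0.72 in NTC and 0.15 in RNAi #2 cells. With RNAi #1 the interaction was -0.19 (95% interval -0.43 to 0.06, adjusted p = 0.388), and with neither duplex did the interaction reach 1.5-fold. IRF1 was 1 of 44 members (2.27%) that passed the adjusted p for RNAi #2, against 3.94% of all probe sets. Calls for HRG over all probe sets were also fewer with RNAi #2 (1.73%) than in parental (5.27%) or NTC cells (6.01%). A smaller response with RNAi #2 was therefore not particular to IRF1.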

How the results depend on the processing

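Gene differences were followed where the adjusted p was under 0.05 in the main fit, and for HRG in called and classical members. Of these, none changed direction past its threshold under any alternative. Leaving out 1 array at a time, 2506 checks kept their side of the threshold, 37 no longer passed and 25 newly passed. Among the other alternatives, 912 checks kept their side, 12 no longer passed and 55 newly passed. New calls outside the differences followed, such as IFIT1 and MX1 under the block, are not in these counts. Most of the 55 came from dropping the fold threshold. Under that rule each difference with an adjusted p under 0.05 passes by definition, so they do not measure sensitivity to processing. By the adjusted p alone, members called were 14 for HRG in NTC cells, 9 with RNAi #1 and 7 with RNAi #2, 2 for RNAi #1 against controls with vehicle, 8 and 10 for RNAi #2 against controls with vehicle and HRG, 1 for the interaction with RNAi #2 and 2 between the duplexes with HRG. For RNAi #2 against controls, 0 were called with vehicle and 0 with HRG both over all probe sets of the table and in a fit of only the groups compared. Without the 4 arrays that stood apart there were 2 and 4. With vehicle there were 0 with NTC cells alone as control and 0 without both parental arrays numbered 2. With HRG there were 0 under a robust fit with a trend in the variance and 2 with arrays centred on their medians. With the replicate number as a block there were 3 for RNAi #2 against controls with HRG (IFIT1, MX1 and OAS1). The block also called SAMD9 for HRG with RNAi #1 (-0.60, adjusted p = 0.0127 by limma). Same-numbered HRG and vehicle arrays gave no uniform pairing in NTC cells (r 0.04 to 0.24) or with RNAi #1 (-0.05 to 0.25). Same-numbered arrays of different cell groups were also checked. Over all 36 pairs, r ran from -0.09 to 0.46 and 31 were over 0.1, so arrays with the same number shared some variation. Leaving out each array in turn, members called ranged from 3 to 5 for HRG in parental cells, 3 to 6 in NTC cells, 1 to 3 with RNAi #1 and 0 to 2 with RNAi #2, from 0 to 4 and 0 to 8 for RNAi #2 against controls with vehicle and HRG, and from 0 to 1 for the interaction with RNAi #2. Precision is limited by 3 arrays per group and, for TRIM22, IFI44, IFI44L, EPSTI1 and RSAD2, by signals near the dim end of the array.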

Other observations

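SP100 and USP18 each lie on 1 further probe set that the annotation pairs with several genes, and those probe sets were not used for the members. The HRG response of the members did not differ between NTC and parental cells for any gene after adjustment by limma, and 2 members had an unadjusted p under 0.05 in that comparison, which was added after the data were seen.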
